A study of Homo sapiens with 28 samples.

Results

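Peaks of N6-methyladenosine (m6A) were examined over the replication-dependent histone genes, chosen as protein-coding genes with symbols of the form H1-number, H2AC, H2BC, H3C or H4C followed by a number. The rule found 73 of 20033 protein-coding genes of GENCODE 44 on hg38, namely 10 linker histone H1 genes, 17 H2A genes, 18 H2B genes, 13 H3 genes and 15 H4 genes. It also took in replacement and germ-cell linker histones, such as H1-6 and H1-10, so the name holds for 68 of the genes only. A peak was counted for a gene when it overlapped the gene, or the 1000 bases before its start, by at least 1 base, with each strand counted apart. A peak is called sense when it lies on the strand of the gene.

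Chromatin-associated RNA (caRNA) of 3 human cell lines was depleted of ribosomal RNA, and RNA carrying m6A was immunoprecipitated (IP) with an antibody and sequenced (MeRIP-seq). K562 came from a myelogenous leukaemia, NB4 from an acute leukaemia of promyelocytes and HepG2 from a hepatoma. The 14 IP libraries fall into 6 groups. HepG2 has 2 WT libraries, K562 has 2 each of WT, Control and RBFOX2 KD, and NB4 has 3 each of Control and RBFOX2 KD. WT cells are labelled wild type, Control cells carried a control short hairpin RNA and KD cells a short hairpin RNA against RBFOX2, an RNA-binding protein. Each group is 1 line, and the methods of the study call replicates biological, but the labels do not say whether they were separate cultures, so p-values cover only the spread between these libraries. The peak lists hold no expression levels, so neither the lines nor the knockdown could be checked against their marker genes.

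Replication-dependent histone genes supply the bulk histones that package newly made DNA, and are transcribed mainly in S phase. Most lack introns, stand in clusters and often form divergent pairs, in which an H2A and an H2B gene share a short promoter. Their mRNAs end in a conserved stem-loop bound by SLBP in place of a poly(A) tail, and the transcript is cut just past the stem-loop.

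The stem-loop core was searched as CTTTTNAG on the sense strand, from 100 bases before to 20 bases past the annotated 3′ end. It stood at 65 of the 73 genes, among them 64 of the 68 replication-dependent genes, and at 1.37% of 19960 other protein-coding genes. H2BC10, H2BC21, H3C6 and H4C13 were the 4 replication-dependent genes without a match in this window. The RefSeq promoter table matched 67 of the 73 genes by symbol, and 72 of the 73 had an intronless canonical transcript. The following 26-base windows show the core in capitals, 5′ to 3′ on the strand of the gene, for 6 genes whose peaks are described next.
H3C4, chr6:26196784-26196809, minus strand: ccaaaggctCTTTTCAGagccaacca
H2AC11, chr6:27133510-27133535, plus strand: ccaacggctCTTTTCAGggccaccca
H2BC8, chr6:26216213-26216238, minus strand: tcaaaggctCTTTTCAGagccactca
H2BC17, chr6:27893865-27893890, plus strand: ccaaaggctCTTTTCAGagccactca
H1-6, chr6:26107412-26107437, minus strand: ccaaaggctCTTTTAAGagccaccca
H4C12, chr6:27831173-27831198, minus strand: caaaaggccCTTTTTAGggcccccac

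K562 was the line in which the histone genes carried peaks. Of the 73 genes, 41 and 44 had a sense peak in the K562 WT libraries, 38 and 43 in K562 Control and 41 and 37 in K562 RBFOX2 KD. In HepG2 WT the counts were 7 and 7, in NB4 Control 7, 5 and 5, and in NB4 RBFOX2 KD 12, 10 and 13. The lowest K562 library thus stood far above the highest library of the other lines, and the groups of the other lines did not reach it. Over all protein-coding genes the share with a sense peak ran only from 36.8% to 48.6% across the 14 libraries, and over intronless genes from 14.6% to 21.6%.

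**Figure D1:**
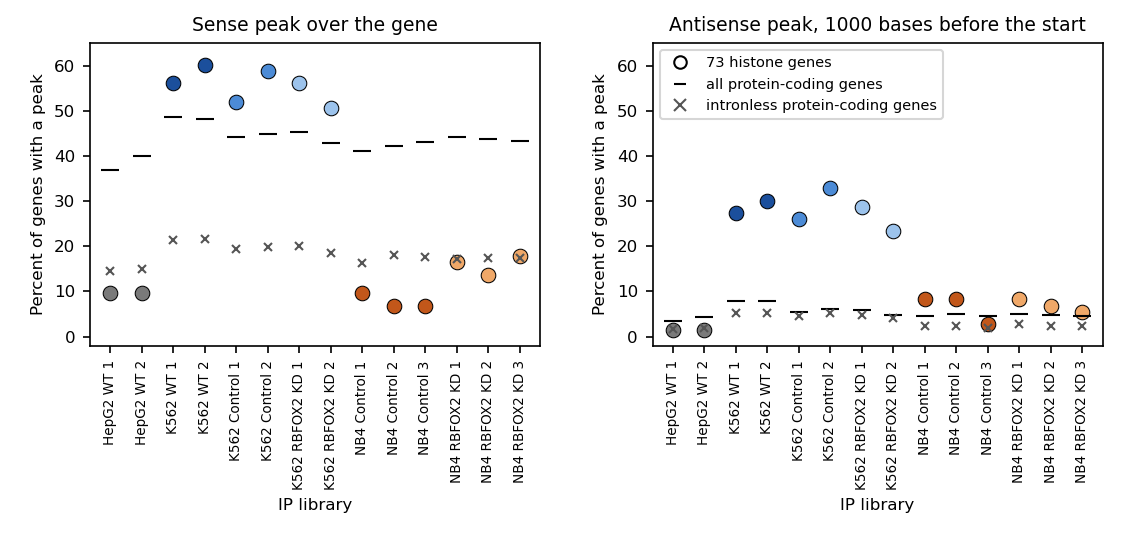
Percent of the 73 histone genes (circles), of all protein-coding genes (bars) and of intronless protein-coding genes (crosses) with a sense peak over the gene (left) or an antisense peak in the 1000 bases before the start (right), by IP library. The 6 K562 libraries (blue) lie between 50.7% and 60.3% on the left, and the other 8 libraries at or below 17.8%.

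Depth differed between the libraries. Effective read depth, recovered from the fold and p-value at each summit, was 12.6 to 25.6 M in K562 (M stands for 1000000 reads), 10.8 to 21.9 M in NB4 and 26.9 and 30.04 M in HepG2. With depth matched, 33 to 41 of the 73 genes had a sense peak in the K562 libraries, 4 to 12 in NB4 and 3 and 6 in HepG2. Depth in the HepG2 libraries and NB4 Control 3 is less certain, since few of their pileups came out whole. An IP peak needs RNA to be present, and the input libraries are not analysed here, so more RNA of a histone gene and more m6A on it cannot be told apart. The same holds in bulk RNA for fewer cells in S phase and less histone RNA per cell.

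In every K562 library a sense peak stood over 33 of the 73 genes (45.2%), where 38.9% of all protein-coding genes and 16.9% of intronless ones had such a peak. The 33 were 4 H1, 7 H2A, 9 H2B, 7 H3 and 6 H4 genes. Of the 68 replication-dependent genes, H4C15 alone had a sense peak in every NB4 library, where 36.1% of all genes had one. In every HepG2 library there were 3 of the 68, H4C14, H4C15 and H4C16, also against 36.1% of all genes. Over the canonical transcripts alone 25 of the 68 remained in K562, 0 in NB4 and 1, H4C16, in HepG2, since the gene models of H4C14 and H4C15 run far past the histone transcript. With all lists shortened to the 22700 strongest peaks, the length of the shortest list, the K562 count was 18.

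H4C15, one of several genes for histone H4, and H1-10, a replacement linker histone, had a sense peak in all 14 libraries. For comparison between libraries each gene was given the percentile of the −log10 q of its strongest sense peak within its own peak list, so that 100 is the strongest peak of a library. The percentile of H4C15 was 95.9 and 93.6 in K562 WT, 88.03 and 91.6 in K562 Control, and 92.4 and 92.1 in K562 RBFOX2 KD. It was 55.1 and 63.8 in HepG2 WT, 36.3, 42.1 and 12.7 in NB4 Control, and 40.9, 34.8 and 13.8 in NB4 RBFOX2 KD. Each K562 library was above each library of the other lines. The gene model of H4C15 runs for 7115 bases, and over its transcript of 396 bases a sense peak stood in 6 of 6 K562, 5 of 6 NB4 and 0 of 2 HepG2 libraries. The percentiles above are those of the strongest peak anywhere in this model. Over the transcript they ran from 78.7 to 91.0 in K562, and from 13.8 to 40.9 in the 5 NB4 libraries with a peak. H4C15 and H4C14 form a near-identical inverted copy on chromosome 1, with all 50-base words of either transcript found elsewhere in the genome, so reads of one may be counted at the other.

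**Figure D2:**
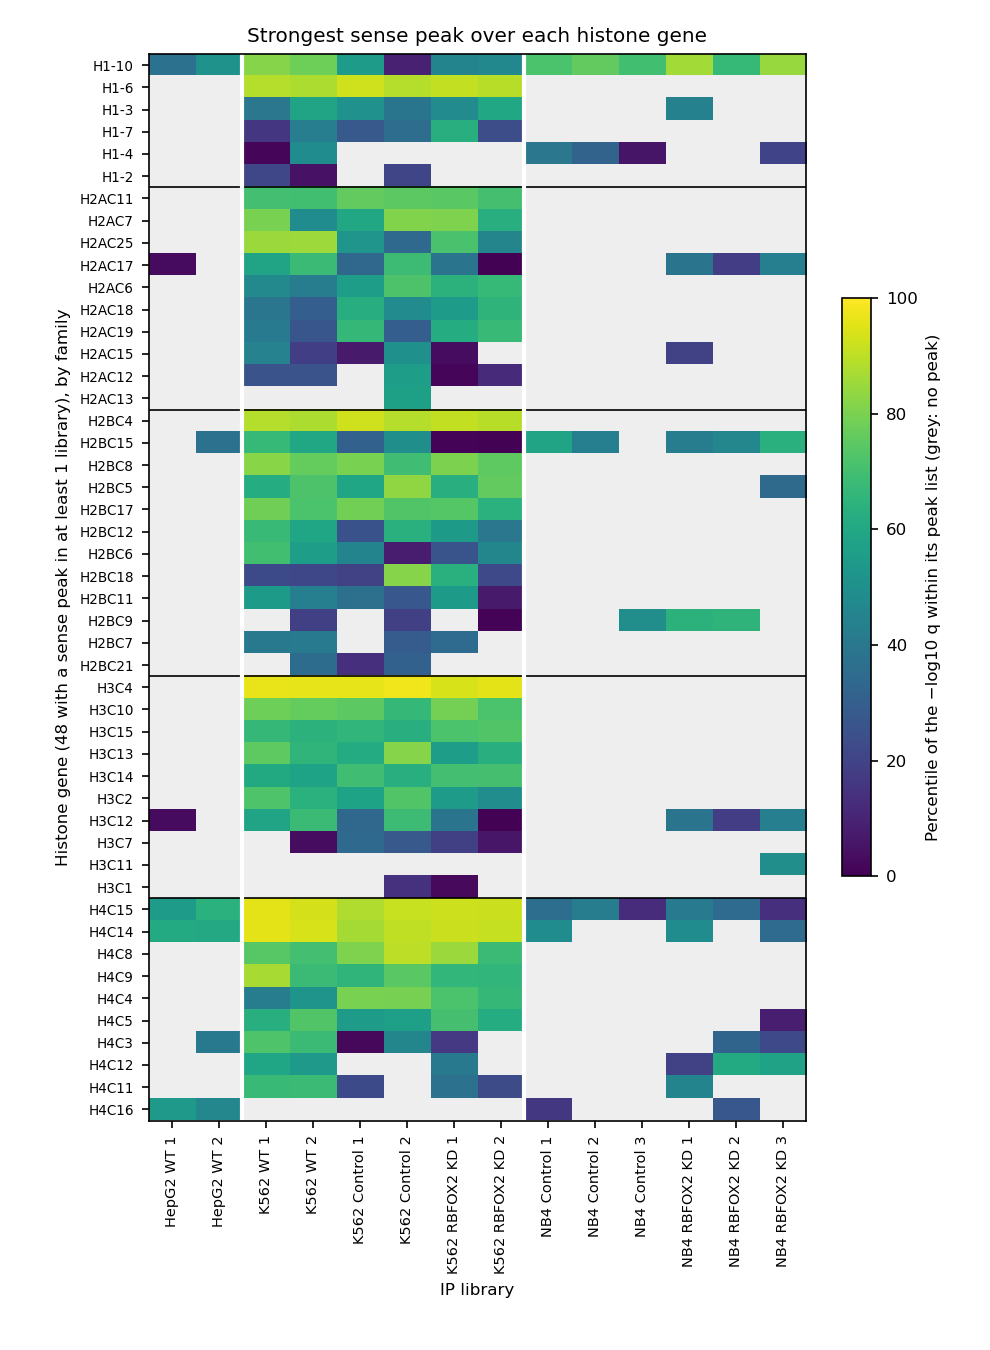
Percentile of the strongest sense peak over each of 48 histone genes with a sense peak in at least 1 library (rows, by family) in the 14 IP libraries (columns), where grey marks no peak. The K562 columns are filled in every family, and most rows are grey in the HepG2 and NB4 columns.

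Another 24 genes had no sense peak in any library. They were H1-1, H1-5 and H1-8 of the linker histones, H2AC1, H2AC4, H2AC8, H2AC14, H2AC16, H2AC20 and H2AC21 of the H2A genes, and H2BC1, H2BC3, H2BC10, H2BC13, H2BC14 and H2BC26 of the H2B genes. In the H3 family they were H3C3, H3C6 and H3C8, and in the H4 family H4C1, H4C2, H4C6, H4C7 and H4C13. At least 1 library had a sense peak over 46 genes in K562, 18 in NB4 and 9 in HepG2. For 31 genes the peaks were in K562 libraries and in no other library, and for H3C11 in a single NB4 library.

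Whether the lines differed was tested per gene over all protein-coding genes, by the number of K562 and of NB4 libraries with a sense peak (6 against 6, two-sided Fisher exact test, Benjamini-Hochberg adjusted). Of the 49 histone genes tested, 24 had more K562 libraries, beside 6.97% of the 11893 genes tested. With more NB4 libraries, 0 of the 68 replication-dependent genes were called by this test (0 at an unadjusted exact p under 0.05), beside 4.74% of genes. The 24 genes called for K562 all had a peak in 6 K562 libraries and in 0 of NB4 (exact p = 0.00216, adjusted p = 0.0185). That is the smallest p this design allows, and the next possible exact value (p = 0.0152, adjusted p = 0.0934) did not pass. When at least 50% of a peak had to lie inside the gene, the K562 count was 15. The test pools WT, Control and KD libraries of a line, and with the KD libraries left out (4 against 3) no gene could pass, since the smallest possible p was 0.0286.

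By family the K562 calls were 7 of 18 H2B genes, 6 of 17 H2A genes, 6 of 13 H3 genes, 3 of 15 H4 genes and 2 of 10 H1 genes. Genes whose transcript held no 50-base word found elsewhere in hg38 numbered 36. Among these, 12 (33.3%) had a sense peak in every K562 library, below the 38.9% of all protein-coding genes and above the 16.9% of intronless ones. Those 2 shares were not restricted by shared words. Of the 21 tested, 8 (38.1%) were called, beside 6.97% of all genes tested. The replication-dependent genes alone gave 30 of 68 and 22 of 45.

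H3C4, a gene of the main histone cluster that encodes canonical histone H3, had the strongest peak of the called genes with a short gene model. Its percentile was 96.6 and 96.3 in K562 WT, 96.1 and 97.9 in Control, and 93.9 and 95.9 in KD. The fold of its summit over the local background was 11.7, 11.03, 12.2, 14.9, 11.2 and 14.8 in the same order. All 6 K562 libraries thus held H3C4 among their strongest peaks, and none of the other 8 libraries held a peak there. H3C10, the next of the called H3 genes, had percentiles of 66.7 to 79.0 (median 75.5) in K562.

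Among H2A genes, H2AC11 had percentiles of 70.1 and 69.9 in K562 WT, 76.0 and 74.7 in Control, and 74.5 and 70.5 in KD. H2AC7 ranged more widely, from 48.8 to 81.1. Neither had a peak in HepG2 or NB4. H2AC18 and H2AC19, like H3C14 and H3C15, are near-identical copies on chromosome 1 and were called together, so they do not count as independent genes.

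Among H2B genes, H2BC17 had percentiles of 78.1 and 71.6 in K562 WT, 78.8 and 72.7 in Control, and 73.6 and 63.8 in KD. H2BC8 had 82.1 and 76.2, 79.7 and 69.5, and 80.2 and 75.3 in the same order. The peaks of both were in the upper part of each K562 list. H2BC12 was lower, with 67.8 and 59.3, 25.1 and 63.4, and 54.6 and 39.8. H2BC18, H2BC4, H2BC6 and H2BC11 were also called, but their gene models run for 6899 to 37610 bases, past the histone reading frame. Over the canonical transcripts H2BC4 had a sense peak in 3 of the 6 K562 libraries and H2BC11 in 2. H2BC6 had one in K562 WT 2 and Control 2 only. The strongest peak counted for H2BC4 is that of H1-6, which lies inside its model on the same strand.

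Among H4 genes, H4C9 had percentiles of 87.0 and 68.3 in K562 WT, 65.4 and 74.6 in Control, and 66.4 and 65.8 in KD. H4C4 had 41.8 and 51.9, 79.8 and 79.5, and 71.7 and 66.5 in the same order. H4C4 was lower in both WT libraries than in the 4 hairpin libraries. H4C8 had percentiles of 68.3 to 90.01, over a gene model of 8030 bases.

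Of the linker histones, which bind the DNA between nucleosomes, H1-6, a testis linker histone, had percentiles of 88.9 and 87.8 in K562 WT, 92.6 and 89.0 in Control, and 91.0 and 89.1 in KD, with no peak in HepG2 or NB4. H1-7, also a testis linker histone, had 15.9 and 43.0, 27.98 and 35.7, and 62.7 and 23.8. H1-10 had 81.7 and 78.0, 55.1 and 9.05, and 45.3 and 46.8 in K562 WT, Control and KD, 71.5, 76.2 and 69.6 in NB4 Control, 86.2, 67.1 and 84.5 in the NB4 KD libraries, and 37.6 and 51.1 in HepG2. The K562 range of H1-10 overlapped those of both other lines, and its NB4 values all lay above those of HepG2.

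The WT libraries of HepG2 and K562 gave the same order of lines. Of the 46 histone genes with a sense peak in at least 1 of these 4 libraries, 34 had one in both K562 WT libraries and in neither HepG2 WT library, beside 22.3% of all such genes. The reverse held for 1 of the 68 replication-dependent genes, H4C16, beside 8.13%. With 2 libraries against 2 the smallest exact permutation p is 0.333, so no test was made.

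Pooled over genes, the peaks lay at different places in the lines. Positions were taken along the canonical transcript of the 68 replication-dependent genes. In K562 the 208 sense peaks over 42 genes had their median summit at 67.7% of the transcript, and 9.62% of summits lay in the first 150 bases. In NB4 the 36 peaks over 15 genes had their median summit at 26.1%, with 27 of the 36 summits in the first 150 bases. As pooled, the NB4 peaks thus stood toward the 5′ end and the K562 peaks in the 3′ part, but the 42 and 15 genes are different sets. Genes with peaks in both lines did not all differ in this way. H4C15 summits lay at base 433 to 438 in K562 and at 92 to 113 in NB4. H2AC15 summits lay at 260 to 262 in K562 and at 257 in NB4. Per library, the median summit was at 55.1% to 74.6% in the 6 K562 libraries and at 22.7% to 44.1% in the 6 NB4 libraries, so the lines did not overlap, although NB4 Control 3 held only 2 such peaks and NB4 Control 2 only 3. Other intronless protein-coding genes had their median summit at 30.6% to 37.0% in the 14 libraries, with 4.76% to 9.94% of summits in the first 150 bases. The HepG2 libraries held 5 such peaks in all, too few to place.

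**Figure D3:**
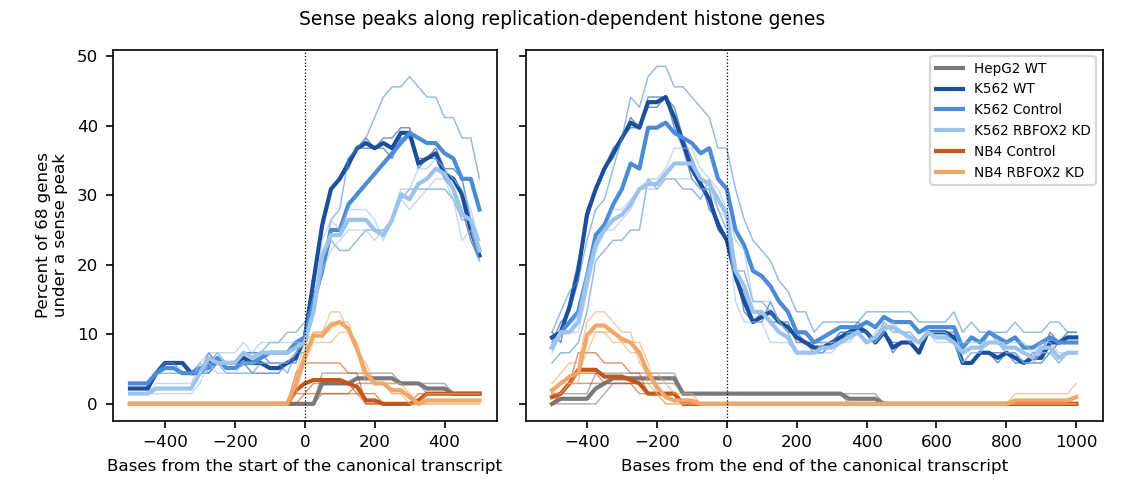
Percent of the 68 replication-dependent histone genes under a sense peak, by distance in bases from the start (left) and from the annotated end (right) of the canonical transcript. Thick lines are group means and thin lines single libraries. K562 coverage is highest in the 3′ part and runs past the end, where 16 to 25 genes are covered at the last base, and NB4 coverage is highest near the start and absent at the last base.

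K562 peaks also ran past the 3′ end. Of the 208 K562 peaks, 110 (52.9%) reached past the last annotated base and 32 (15.4%) had their summit past it, beside 1.03% to 3.83% of summits at other intronless genes. None of the 36 NB4 peaks reached past the end. Of 205 K562 peaks over genes with the stem-loop core, 113 (55.1%) covered the core whole and 35 (17.1%) had their summit past it, and of the 36 NB4 peaks 0 did either. The median K562 summit lay 127 bases before the core, and the median NB4 summit 288 bases before it. Whether the RNA or the m6A on it differs in position cannot be told apart.

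By family, the median summit was at 75.1% of the transcript in H3 genes of K562, 70.8% in H2A genes, 68.1% in H4 genes, 63.9% in H1 genes and 37.0% in H2B genes. Of H3 peaks 83.7% reached past the end, and of H2B peaks 28.3%. Each family held 8 to 12 genes except H1, with 3, and the same genes recur across libraries, so these values are descriptions with no test.

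How far the summit of a gene moved between libraries differed from gene to gene. Over the canonical transcripts, 25 replication-dependent genes had a sense peak in every K562 library, and the strongest summit moved by at most 50 bases between the 6 libraries in 11 of them and by over 100 bases in 13 (median 125). The H3C4 summit lay at base 340 to 343 (median 341) of 503, the H4C4 summit at 266 to 276 of 403, and the H2BC17 summit at 172 to 183 of 467. The H2AC11 summit lay at 456 to 490 of 493, close to the end. Summits moved most in H2BC18, H2BC5 and H2AC19, where they lay before the start in some libraries and inside the transcript in others. In H3C2 the summit ran from base 136 to 384 of 511, and in H2AC7 from 162 to 304 of 510.

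A longer search took sense summits 1 to 1000 bases past the annotated end that lay in no other protein-coding gene, a window set after the peaks had been seen. In every K562 library 11 genes had such a summit, namely H1-4, H2AC16, H2AC25, H2BC8, H2BC17, H3C12, H4C4, H4C8, H4C9, H4C14 and H4C15. In at least 1 K562 library there were 18, in NB4 0 and in HepG2 1 (H4C16). The share of all protein-coding genes with such a summit was not counted, so these counts cannot be read as particular to histone genes. Some of these peaks are also counted for a neighbour. In K562 Control 2 and KD 2 the H1-4 peak (percentiles 83.3 and 75.9) is also the sense peak counted for H2BC5. H2AC16, a core H2A gene without a sense peak over its own body, had its summit 686 bases past its end. H4C9 had it at 118 bases and H4C4 at 601 bases.

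The m6A writer is known to favour an A followed by C in a short consensus, so the word GGACT and its 3 variants (first GAACT, then AGACT, last AAACT) were counted on the sense strand within 75 bases of each summit. In K562, 92 of 207 summits over replication-dependent genes (44.4%) held at least 1 of the 4 words, beside 69.6% of all K562 summits. In NB4 6 of 36 (16.7%) did, beside 60.6% of all NB4 summits. GGACT alone stood at 14 (6.76%) of the K562 summits beside 27.0%, and TGCATG, the word bound by the RBFOX family, at 0 beside 3.75%. In HepG2 4 of 5 (80%) held 1 of the 4 words, beside 61.2% of all HepG2 summits, too few to compare. The K562 and NB4 shares were below those of all summits in the same line, given as a description with no test, since the same genes recur across libraries. Base composition moved with it: the median GC content of the 151-base windows was 55.6% to 57.0% over histone summits and 47.0% to 49.01% over all summits in the K562 libraries, and its part in the word counts was not tested.

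The windows below show the nearest of the 4 words in capitals, 5′ to 3′ on the strand of the gene. They cover 5 genes with such a word within 75 bases of the median K562 summit. Others looked at, among them H3C10, H4C9, H2AC7, H2BC12 and H2AC25, had no such word there. H4C12, H4C15 and H2BC15 had none at their median NB4 summit. The word lies 7 bases from the median summit in H1-6, 24 in H2AC11, 47 in H2BC8, 52 in H2BC17 and 64 in H3C4. In H2AC11 and H2BC8 it lies past the annotated end.
H1-6, chr6:26107643-26107672, minus strand: ccaagtcaccaaAGACTgctaaaaccaata
H2AC11, chr6:27133538-27133567, plus strand: tcttctctaaaaGAACTtaacatttattcc
H2BC8, chr6:26216004-26216033, minus strand: gtgtcatcccagAGACTcgggaggctgccg
H2BC17, chr6:27893639-27893668, plus strand: catgggcatcatGAACTccttcgtcaatga
H3C4, chr6:26196995-26197024, minus strand: cgcaggacttcaAGACTgatctgcgttttc

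The stretches between divergent pairs held no summit. Members on opposite strands whose starts face away from each other within 1000 bases gave 14 pairs of 27 genes, with 169 to 978 bases (median 237) between the starts. A peak on either strand overlapped the stretch in at least 1 library in 6 pairs, 5 of them in K562, 2 in NB4 and 0 in HepG2. The K562 and NB4 counts include H3C12/H2BC17, whose stretch holds the 5′ part of H2AC17. Of these 26 peaks, 0 had their summit between the starts, and each summit lay inside one of the 2 gene models of the pair. H3C12/H2BC17 was the only pair with such a peak in every K562 library, by 8 to 14 bases of the peak over H2AC17. H2AC17 overlaps the gene model of H3C12 and starts nearer to H2BC17, so these bases lie inside H2AC17. All peaks counted for H3C12/H2BC17 ended inside H2AC17, and the stretch of H2AC17/H2BC17 held no peak in any library. At H2AC15/H2BC15 5 of the 6 K562 libraries held a plus-strand peak that began 47 to 165 bases before the start of H2BC15.

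By canonical transcripts, both partners had a sense peak in every K562 library in 1 pair (H2AC17/H2BC17), exactly 1 partner in 8 pairs, and neither in 5. H2AC7, H2BC12 and H2AC11 are examples of the partner with peaks in 6 of 6 K562 libraries, with H2BC7, H2AC12 and H2BC11 as partners with 4, 5 and 2.

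Upstream of the starts, opposite-strand peaks found in every K562 library were mostly those of the partner. In every K562 library an antisense peak overlapped the 1000 bases before the start of 14 genes (19.2%), beside 3.79% of all protein-coding genes. Of the 14, 10 stand in a divergent pair, and in all 10 the strongest such peak was, in every K562 library, the strongest sense peak over the partner. The other 4 were H4C14, H4C15, H3C14 and H3C15 of the chromosome 1 duplication. A sense peak before the start was found in every K562 library for 6 genes (H2BC18, H2AC18, H2AC19, H2BC5, H2BC6 and H3C12), beside 2.42% of all genes. An antisense peak over the gene was found for 1, H2BC6, beside 9.48%. With a window of 500 bases the antisense count before the start was 9, and by summits the sense count was 3.

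The pair of H2BC8, an H2B gene at chr6:26216200-26216688 on the minus strand, and H2AC8, an H2A gene at chr6:26216921-26217437 on the plus strand, is described in full. H2AC8 had no sense peak in any of the 14 libraries. A minus-strand peak of 628 to 742 bases stood in each of the 6 K562 libraries and in no other, with a fold of 7.91 and 6.12 in WT, 9.66 and 7.56 in Control, and 9.82 and 8.60 in KD. It overlapped the 3′ part of H2BC8, and its summit lay 215 to 245 bases past the annotated end of that gene. In K562 the H2BC8 percentile averaged 74.6 ± 7.26 for Control libraries, against 77.7 ± 3.49 for KD libraries (mean ± SD, n = 2 per group), a difference smaller than the Control SD. With 2 against 2 the smallest exact permutation p is 0.333. The peak overlaps the 1000 bases before H2AC8, which also hold the whole of H2BC8.

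**Figure D4:**
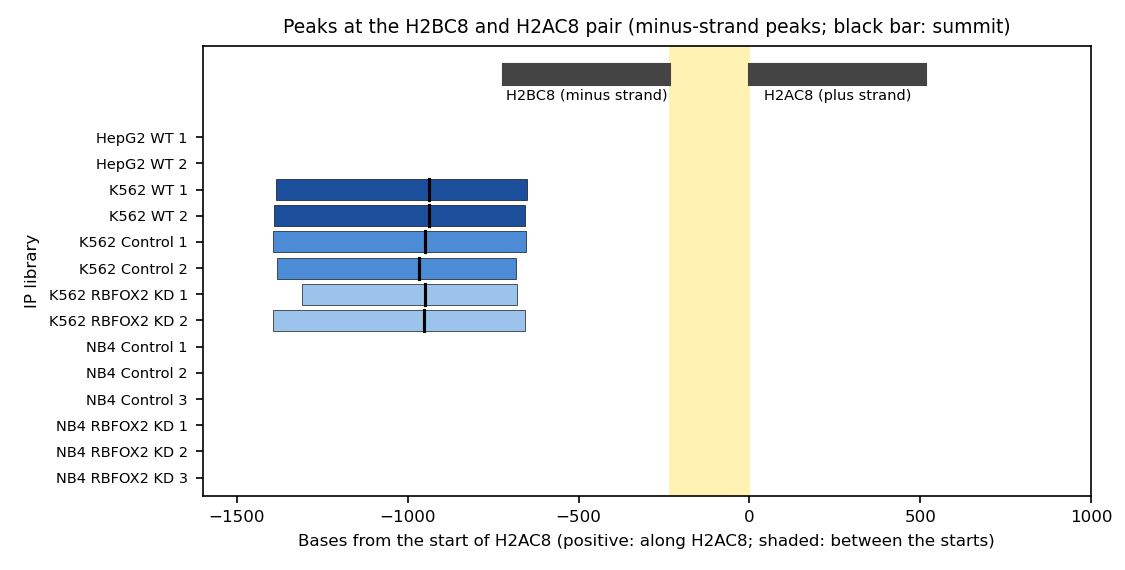
Map of the H2BC8 and H2AC8 pair, with the distance in bases from the start of H2AC8 on the x axis and the 14 IP libraries on the y axis. Boxes are minus-strand peaks and black bars their summits, which in the 6 K562 libraries lie beyond the far end of H2BC8 from H2AC8, and the shaded stretch between the starts holds no peak.

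The 232 bases between these 2 starts are printed because the pair shares this promoter and no peak lay there. Capitals mark CCAAT and TATAA on either strand, so also ATTGG and TTATA.
H2BC8 to H2AC8, chr6:26216689-26216920, plus strand: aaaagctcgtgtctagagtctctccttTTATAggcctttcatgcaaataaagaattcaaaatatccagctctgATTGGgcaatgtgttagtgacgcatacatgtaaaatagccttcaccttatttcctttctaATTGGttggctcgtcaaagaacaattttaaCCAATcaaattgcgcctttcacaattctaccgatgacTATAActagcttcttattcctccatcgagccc
All 14 pair stretches held CCAAT on either strand and 13 held TATAA, where 30.9% and 18.4% of 35116 RefSeq promoter windows (GRCh38.p14), cut to 232 bases from 250 bases before the start, did. The pair stretches were searched whole, at 169 to 978 bases, and serve both genes of a pair. Each RefSeq window has a fixed length and serves a single start, so the shares are not measured alike. The letters are a description, and say nothing of which factors bind. The 120 bases around the median H2BC8 summit, past the end of the gene, follow on the minus strand with AGACT in capitals.
H2BC8 past its end, chr6:26215912-26216031, minus strand: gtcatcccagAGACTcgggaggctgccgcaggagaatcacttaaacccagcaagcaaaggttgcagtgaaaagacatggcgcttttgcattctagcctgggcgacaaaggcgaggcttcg

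Few histone peaks were lost or gained on knockdown of RBFOX2. A peak counted as lost when every Control library of a line and no KD library held it, and as gained in the reverse case. In K562 1 of 45 histone genes lost its peak (H2BC21), beside 0.948% of all genes with a peak, and 0 gained one, beside 0.69%. In NB4 0 of 18 lost a peak, beside 0.536%, and 3 gained one (H4C12, H3C12 and H2AC17), beside 0.899%. The last 2 share 1 peak, so the gains rest on 2 peaks. With lists of equal size the NB4 gains and the K562 loss were both 0.

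H4C12, an H4 gene, had percentiles of 19.3, 61.2 and 57.7 in NB4 KD and no peak in the 3 NB4 Control libraries. In K562 it had 59.2 and 54.1 in WT, no peak in either Control library, and 40.6 and no peak in KD. Its percentile was 33.2 points higher in KD averaged over the lines (2-sided exact permutation within lines, p = 0.05, the smallest its values allow, adjusted p = 0.683). H4C12 shares 92.6% of its 50-base words with other places in the genome, so the gene of origin is uncertain. H2AC17, an H2A gene, had 38.4, 18.1 and 43.3 in NB4 KD and no peak in NB4 Control. In K562 the H2AC17 values were 58.3 and 68.4 in WT, 33.5 and 68.4 in Control, and 38.5 and 0.536 in KD. H2BC21, an H2B gene with a long transcript, had 13.4 and 31.1 in K562 Control, none and 35.2 in WT and no peak in KD.

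**Figure D5:**
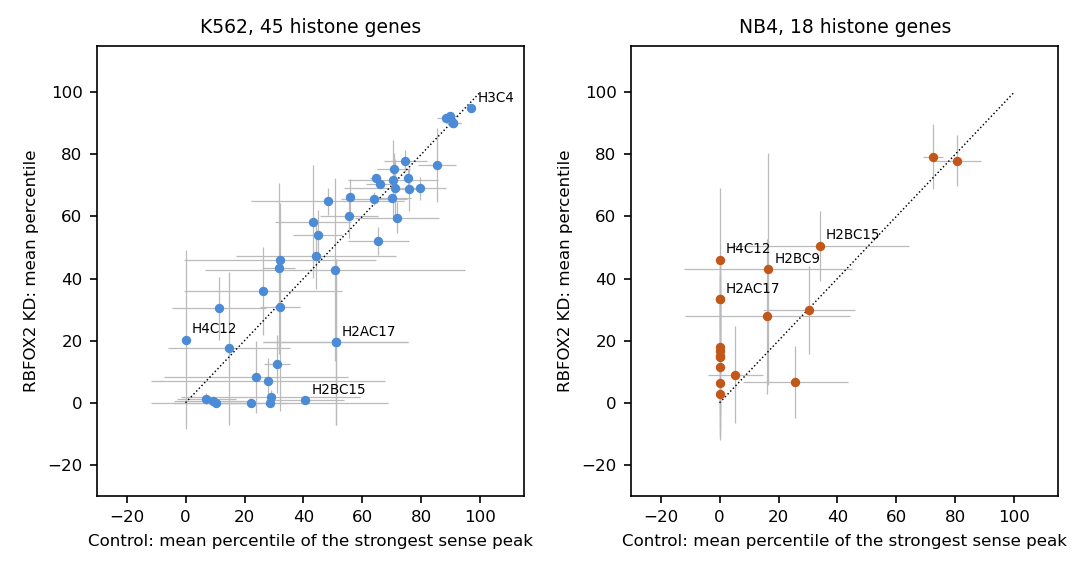
Mean percentile of the strongest sense peak in RBFOX2 KD (y axis) against Control (x axis) for histone genes with a peak in either group of K562 (left, 2 libraries each) and NB4 (right, 3 each), where 0 stands for no peak, bars are SD and the dotted line marks equality. In NB4 15 of 18 genes lie above the line, where H4C12 and H2AC17 stand at 0 in Control.

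The strength of sense peaks in KD and Control was tested per gene with both lines as strata (exact permutation, 120 arrangements, smallest p 0.0167, Benjamini-Hochberg over all genes with a peak). By this permutation test no gene passed the adjusted threshold of 0.05 (smallest adjusted p = 0.683), and 487 genes (4.22%) had an unadjusted p under 0.05. Of the 49 histone genes tested, 42 could not reach an exact p under 0.05 whatever the arrangement of their values, most of them because their peaks were in 1 line, so this test says little of them. The other 7, H1-10, H2AC17, H2BC9, H2BC15, H3C12, H4C14 and H4C15, had an exact permutation p of 0.483 to 1. Within a line the smallest possible exact p is 0.333 in K562 and 0.1 in NB4. In K562 the median difference between KD and Control was −1.11 points over histone genes and −0.571 over all genes. In NB4 it was 13.1 points over the 18 histone genes and 2.07 over all genes, with 15 of 18 higher in KD, beside 62.7% of all genes.

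Depth moved with the NB4 groups. Effective reads were 10.8, 14.1 and 15.6 M in NB4 Control, against 21.9, 18.6 and 16.8 M in the KD libraries. After matching depth, 7, 5 and 4 histone genes in NB4 Control and 12, 10 and 12 in NB4 KD had a sense peak. With lists of equal size they numbered 6, 5 and 3, and 6, 5 and 7, so these groups overlapped.

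Genes of histone transcription, 3′ end processing and mRNA decay were looked at beside the histone genes. Of 12 such genes, 7 to 11 had a sense peak in each library, 6 had one in all 14, and 0 were called in either direction between K562 and NB4, beside the 6.97% and 4.74% of all genes tested that were, so a list of this size says little. NPAT, the coactivator of histone transcription, had a median percentile of 96.4 in K562 and 87.3 in NB4, and CASP8AP2, which acts with it, 97.9 and 94.6. SLBP, the stem-loop binding protein, had a peak in 4 of 6 K562, 2 of 6 NB4 and 0 of 2 HepG2 libraries, and LSM11 of the U7 particle in 2, 5 and 0.

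Replacement and variant histones were looked at in the same way. Of 9 variant genes, 3 to 5 had a sense peak in each library and 0 were called for K562. H2AX, the variant phosphorylated at DNA breaks, had a peak in all 14 libraries, with a median percentile of 98.2 in K562 and 89.5 in NB4. CENPA, the centromeric H3 variant, had one in all 14 over its gene model of 36779 bases, but over its canonical transcript in 2 of 6 K562 and in no NB4 or HepG2 library. H2AJ was called for NB4, with a peak in 6 of 6 NB4, 0 of 6 K562 and 2 of 2 HepG2 libraries (exact p = 0.00216, adjusted p = 0.0185). H3-3A and H3-3B, which encode H3.3, had no sense peak in any library.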

How the data were processed

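MeRIP-seq peaks of 14 IP libraries of caRNA from 3 lines were analysed, and the 14 input libraries are not analysed here. Per the methods of the study and the labels, the authors trimmed reads with Trimmomatic 0.39, aligned them to hg38 with HISAT 2.1.0, split strands with samtools 1.9 and called peaks per library and strand with MACS2 (reads extended to 150 bases, up to 5 duplicates kept, genome size 1.3e+08, q under 0.01). Whether matched input served as background is not given in the sources used here. Replicates were not pooled. The deposited lists hold the fold ratio at the summit, the −log10 p, the −log10 q and an integer score by the authors, with no read counts, so peak presence and strength within a list were compared, not methylation levels.

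Here peaks were assigned to GENCODE 44 genes with Python 3.11.15, numpy 2.4.6, pandas 2.3.3 and scipy 1.17.1. Presence was tested between lines with Fisher's exact test, and the percentile of the −log10 q (0 where no peak) between KD and Control by exact permutation within lines, both adjusted over all protein-coding genes. Depth was recovered from the fold and the Poisson p at each summit. Scripts were tested on simulated data. Sequences were read from hg38 and, for promoters, RefSeq. Alternatives were stricter or equal-length lists, summit or assignment by 50% of the peak, matched depth, the canonical transcript, a shorter window, each library left out, and a replicate block.

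Named genes are those with a sense peak in all 14 libraries, past adjusted p of 0.05 between lines, lost or gained on KD, or present in most libraries of their family, with H2AC8, H2BC8 and H1-10 (1 further gene is not reported here). Beyond 30 names the highest mean percentiles went first, and other genes were named after their values were seen. The genes and lists were chosen with earlier results of these data known.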

Additional observations from a re-analysis of the deposited data

Results flagged for a closer look

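In 3 genes every RBFOX2 KD library of K562 lay below the K562 Control mean and every KD library of NB4 above the NB4 Control mean. The difference between the lines was not tested, and the genes stand on 2 peaks in each line. The summits of these peaks mostly lay at different bases in K562 and NB4. H2BC15, an H2B gene, had a percentile 39.8 points lower in KD than in Control in K562 (KD minus Control −39.8) and 16.7 points higher in NB4. Its values were 31.2 and 49.9 in K562 Control, 1.08 and 0.430 in K562 KD, 58.6, 43.3 and no peak in NB4 Control, and 42.0, 46.4 and 63.4 in NB4 KD. Within NB4 the Control and KD values of H2BC15 overlapped. The H2BC15 summits lay at base 154 and 441 in K562 Control and at 438 and 441 in K562 KD, against 73 to 91 in NB4. H2AC17 and H3C12 share their strongest peak and had KD minus Control differences of −31.4 points in K562 and 33.3 points in NB4. In K562 the Control values of that peak were 33.5 and 68.4 and the KD values 38.5 and 0.536, which overlap. Its summit lay at base 194 and 355 of H2AC17 in K562 Control and at 354 and 415 in K562 KD. In NB4 KD it lay at 157 to 210.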

How the results depend on the processing

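Peak lists give presence and no counts, so depth, list length and the amount of histone RNA bear on each count. Of 187 values computed under other choices, 161 stayed within 1.5 times the reported one. No called gene changed direction in 475 recomputed values, and 55 fell below the threshold. Lists of equal size gave 18 genes with a sense peak in every K562 library, 0 lost in K562, 0 gained in NB4, and 7 antisense and 3 sense before the start. Assignment by summit gave 3 sense before the start and 0 pairs, and overlap by 50% of the peak gave 15 genes called for K562, 2 sense before the start and 0 pairs. Matched depth gave 3 genes lost in K562 and 3 of the 73 genes in every HepG2 library (5 of the 73 without it), and −log10 q of at least 10 gave 3 lost in K562. The canonical transcript gave 3 in every HepG2 library and 0 antisense over the gene. The 500-base window gave 9 antisense before the start. Without the KD libraries 0 genes were called for either line, since 4 against 3 cannot pass. The cause of the other changes was not tested.

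Leaving out 1 library gave 1 to 3 genes lost in K562 (3 without K562 Control 1 or without K562 RBFOX2 KD 1), 0 to 1 gained in K562 (1 without Control 1, Control 2 or KD 2), 0 to 1 lost in NB4 (1 without KD 3), and 1 to 5 with an antisense peak over the gene in K562 (2 without Control 1 and 5 without KD 2). The counts in every K562 library (33 to 35) and called for K562 (24 to 26) moved little.

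With the replicate number as a block (exact sign flips, smallest p 0.0625) 0 histone genes had an unadjusted p under 0.05, as without it. Same-numbered deviations correlated between −0.174 and −0.0619. The labels do not say whether same-numbered libraries were handled together, and with so few libraries per group these values cannot settle it.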
